A study of Mus musculus with 3 samples.

Results

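Pro-B cells are early B lineage cells of mouse bone marrow in which heavy chain genes are being joined, and they were picked here from droplet single-cell RNA counts by the RNA they carry. A cell was a member when it held at least 1 UMI (a counted mRNA molecule) of Dntt, at least 2 of Vpreb1 plus Igll1, at least 1 of Cd79a plus Cd79b, and less than 2% of its UMIs in S100a8 plus S100a9, the neutrophil transcripts that leak into other droplets. Barcodes under 300 genes, under 500 UMIs or over 10% mitochondrial UMIs were set aside, which kept 71014 of 72388, and the rule found 983 members among these. There were 133 members among 22506 kept cells of MI-E, 76 among 23455 of MI and 774 among 25053 of Sham.

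The cells came from bone marrow of C57BL/6J mice (femur and tibia), were cleaned on a Ficoll-Paque density gradient, and make up 1 library in each of 3 groups. MI-E is labelled MI with EMPA, an agent the labels neither spell out nor give a dose for, MI is myocardial infarction made by tying the left anterior descending coronary artery, and Sham is the control surgery. The age, the time after surgery and the number of animals behind a library are not given in the sources used here. With 1 library a group, no difference below was tested: each ratio carries a 95% interval that covers counting error only, and animal and library cannot be told apart from group.

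In a developing B cell, the RAG recombinase joins the gene segments of the immunoglobulin heavy chain, and terminal deoxynucleotidyl transferase, the product of Dntt, adds nucleotides at the joints. The finished heavy chain is brought to the surface with the surrogate light chain, made of the products of Vpreb1 or Vpreb2 and Igll1, and with the signal pair encoded by Cd79a and Cd79b. This pre-B receptor, together with the interleukin 7 receptor, starts the divisions of large pre-B cells, after which small pre-B cells stop dividing and join their light chain genes.

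The start regions of the gene of Dntt and of the surrogate light chain genes are shown because these transcripts define the cells. Each line gives, 5′ to 3′ on the gene's strand, the 250 bases before and 50 bases after the RefSeq start in build GRCm38.p6, with the E-box CAGGTG, or CACCTG as it reads on the opposite strand, in capitals. The windows are chr19:41029025-41029324 (+ strand) for Dntt, chr16:16869206-16869505 (− strand) for Vpreb1, chr16:17980315-17980614 (+ strand) for Vpreb2 and chr16:16863936-16864235 (− strand) for Igll1.
Dntt: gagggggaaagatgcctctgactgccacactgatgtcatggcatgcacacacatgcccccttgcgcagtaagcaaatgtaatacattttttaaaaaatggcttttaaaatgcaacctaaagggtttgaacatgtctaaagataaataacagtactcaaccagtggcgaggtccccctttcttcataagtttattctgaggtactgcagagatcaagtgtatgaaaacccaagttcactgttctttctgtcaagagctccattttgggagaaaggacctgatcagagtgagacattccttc
Vpreb1: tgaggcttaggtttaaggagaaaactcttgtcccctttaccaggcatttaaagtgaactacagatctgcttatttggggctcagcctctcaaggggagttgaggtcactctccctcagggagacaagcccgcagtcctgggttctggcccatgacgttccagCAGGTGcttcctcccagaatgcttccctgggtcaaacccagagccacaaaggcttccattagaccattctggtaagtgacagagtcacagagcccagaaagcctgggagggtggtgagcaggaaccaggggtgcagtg
Vpreb2: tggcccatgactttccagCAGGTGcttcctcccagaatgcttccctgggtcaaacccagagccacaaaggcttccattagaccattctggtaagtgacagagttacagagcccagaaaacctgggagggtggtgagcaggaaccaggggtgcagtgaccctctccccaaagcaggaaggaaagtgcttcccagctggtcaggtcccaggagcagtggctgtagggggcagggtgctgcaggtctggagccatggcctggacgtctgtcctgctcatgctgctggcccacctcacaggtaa
Igll1: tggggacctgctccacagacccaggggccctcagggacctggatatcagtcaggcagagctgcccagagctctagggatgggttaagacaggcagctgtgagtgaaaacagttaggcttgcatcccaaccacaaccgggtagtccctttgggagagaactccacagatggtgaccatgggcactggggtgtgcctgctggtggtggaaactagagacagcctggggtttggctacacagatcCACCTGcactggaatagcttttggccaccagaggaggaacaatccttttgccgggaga
The motif began 88 bases before the start of Vpreb1, 232 before that of Vpreb2 and 8 before that of Igll1, and the Dntt window held none. Of 32851 promoter windows of this length, 6640 (20.2%) held it, so a match is common and is a description only. Vpreb1 and Vpreb2 shared an unbroken run of 91 bases in these windows, beginning 94 and 238 bases before their starts. They are close copies, and reads may have been split between them.

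The libraries held 109451500 UMIs in MI-E, 127330601 in MI and 99657072 in Sham. A kept cell had a median of 2911, 3451 and 2572 UMIs in MI-E, MI and Sham, and a member had 2008, 1922 and 2864. MI members were thus the shallowest, although the MI library was the deepest. Between 152 and 167 kept barcodes stood in both libraries of a pair. Of these, 1 to 4 were members in a given library of the pair, and 0 were members in both. Neutrophil transcripts (15 genes) summed to 3739 CPM (UMIs per 1000000 of the members' own UMIs) in MI-E members, 6443 in MI and 2196 in Sham, against 114200, 150900 and 73290 CPM over all kept cells. Monocyte genes (15) summed to 3962, 4408 and 3005 CPM in members of MI-E, MI and Sham, and erythroid genes to 3080, 1100 and 8496 CPM, so that the order of the libraries differed between lineages. Some members also held RNA of another lineage: 14 of 133 in MI-E, 9 of 76 in MI and 112 of 774 in Sham had at least 5 UMIs of 13 monocyte genes or at least 1% of UMIs in erythroid genes. Scrublet, a caller of droplets with 2 cells, marked 10 of those 14, 8 of those 9 and 87 of those 112. Over all members it marked 12 of 133 in MI-E (9.02%), 10 of 76 in MI (13.2%) and 170 of 774 in Sham (21.96%), so most calls outside the carriers were in Sham. Of 16 T and NK cell genes, 8 were detected in MI-E members, 8 in MI and 16 in Sham, with sums of 159, 126 and 222 CPM; the defining genes Cd3e, Cd3g and Trac were at 0 in MI-E and MI. Of 10 megakaryocyte genes, 1, 1 and 10 were detected, with sums of 4.90, 9.36 and 89.6 CPM, and the platelet genes Pf4 and Ppbp were at 0 in MI-E and MI. Members held 407831 UMIs in MI-E, 213716 in MI and 3493144 in Sham, so these counts of detected genes were not taken at equal depth.

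Because a few large droplets and the share of dividing cells weigh on summed UMIs, each level below is given for all members and, where it matters, for a restricted set without members that carried monocyte or erythroid RNA and without dividing members. The restricted set was defined after the data were seen and holds 96 cells with 194563 UMIs in MI-E, 61 cells with 124535 UMIs in MI and 420 cells with 920912 UMIs in Sham.

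The rule used Dntt, Vpreb1, Igll1, Cd79a and Cd79b, so their presence is no finding. The members held a median of 3 Dntt UMIs in MI-E, 3 in MI and 4 in Sham, and 11, 14 and 17 UMIs of Vpreb1 plus Igll1. Dntt rested on 1 UMI in 34, 18 and 121 members of MI-E, MI and Sham, and another 108, 34 and 566 cells met every other part of the rule with 0 Dntt UMIs. Just inside the surrogate light chain threshold, at 2 UMIs, stood 4, 2 and 9 members, and just outside it, at 1 UMI, 6, 3 and 11 cells. Outside the limit on S100a8 plus S100a9, 1, 0 and 7 cells met the rest of the rule at 2% to 4% of UMIs. At 4% and over, 8, 14 and 31 cells did, equal to 6.0%, 18.4% and 4.0% of the member counts of MI-E, MI and Sham. This limit thus set aside relatively more cells in MI. At least 1 Dntt UMI was found in 0.939% of 6814 MI-E, 0.579% of 9845 MI and 1.06% of 2931 Sham neutrophil-rich cells, which held at least 2% of UMIs in S100a8 plus S100a9 and no Cd79a or Cd79b UMI, with median depths of 3500, 4178 and 3181 UMIs. The Dntt and surrogate light chain parts of the rule together were met in 1, 1 and 2 of these cells. Both parts were thus rarely met in neutrophil-rich cells without Cd79a or Cd79b RNA. Cells with such RNA were left out of them, so how often free RNA met the whole rule cannot be read from this count.

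The markers that the rule did not use, Arpp21 and Lef1, were present in all 3 libraries. Arpp21, a phosphoprotein gene of early lymphocytes, had 179 CPM in MI-E members, 225 in MI and 178 in Sham, while mature naive cells had at most 0.883 CPM. Lef1, the DNA-binding partner of WNT signalling in early B cells, had 287, 196 and 422 CPM in members of MI-E, MI and Sham, against 9.19, 15.6 and 15.1 CPM in mature naive cells. Ighm, the heavy chain constant region, had 2043, 1872 and 1951 CPM. Igkc, the kappa light chain constant region, which a cell uses only later, had 289, 491 and 610 CPM in members of MI-E, MI and Sham, against 1716, 2182 and 3949 CPM in small pre-B cells and 3899, 6383 and 5602 CPM in mature naive cells. Small pre-B cells had 4359, 4203 and 5424 CPM of Ighm and mature naive cells 3614, 3404 and 3576 CPM, so the members lay below both classes in Ighm and further below them in Igkc, in all 3 libraries. Cells with surrogate light chain RNA but no Dntt (large pre-B cells) lay nearer, with 2442, 2823 and 2310 CPM of Ighm and 550, 701 and 698 CPM of Igkc. An Igkc UMI was found in 17.3%, 21.1% and 42.9% of members of MI-E, MI and Sham, so low Igkc alone does not set them apart. Arpp21 and Lef1 are set here against mature naive cells only.

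Genes that stood above 3 other B lineage classes in every library are likewise a description. Those classes were large pre-B cells (surrogate light chain RNA without Dntt), small pre-B cells (Rag RNA without either and without Ighd) and mature naive cells (at least 2 Ighd UMIs). After Dntt, the genes with the largest smallest ratio were Selenom, an endoplasmic reticulum selenoprotein gene, Frmd6, Egfl7, Tcf7l2, the WNT pathway factor, Smtn and Atp2b4, a calcium pump gene. Vpreb2, Hes1, the Notch target, and Erg, a transcription factor of stem cells and early lymphocytes, were in the same set of 15. Erg had 240 CPM in MI-E, 243 in MI and 145 in Sham members, against 23.6, 100 and 10.4 CPM in large pre-B, 0, 1.88 and 6.97 CPM in small pre-B and 4.50, 4.96 and 2.40 CPM in mature naive cells. Hes1 had 255, 257 and 170 CPM in members of MI-E, MI and Sham, and its highest level in another class was 90.1 CPM, in MI large pre-B cells.

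**Figure D1:**
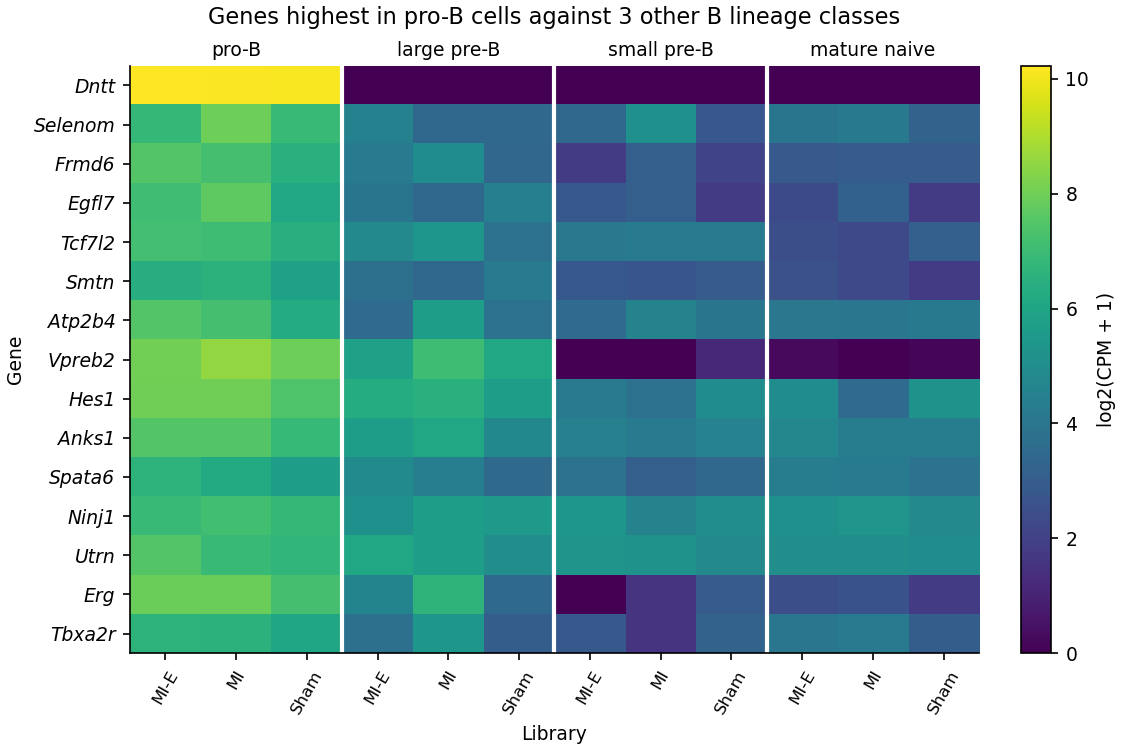
Colour gives log2(CPM + 1) of the 15 genes that stood furthest above the other classes (rows), in the pro-B, large pre-B, small pre-B and mature naive cells of MI-E, MI and Sham (columns). Dntt is at 0 outside pro-B cells by the rule; Erg is bright in the 3 pro-B columns, with 240, 243 and 145 CPM, and weaker in the MI large pre-B column, with 100 CPM.

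Pro-B cells were scarcer in the MI library than in the Sham library, and the MI-E library lay between them. Members were 0.591% of kept cells in MI-E (Clopper-Pearson 95% interval 0.495% to 0.700%), 0.324% in MI (0.255% to 0.405%) and 3.09% in Sham (2.88% to 3.31%). The share in MI was 9.54-fold lower than in Sham (7.53 to 12.2), that in MI-E was 5.23-fold lower than in Sham (4.34 to 6.33), and that in MI-E was 1.82 times that in MI (1.37 to 2.45). None of these intervals includes a ratio of 1.

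The size of the gap depended on the denominator. Among B lineage cells (a Cd79a or Cd79b UMI and under 2% S100a8 plus S100a9), members were 1.86% of 7164 in MI-E, 1.38% of 5515 in MI and 5.41% of 14319 in Sham, so that the MI share was 3.92-fold lower (3.10 to 5.03) and the MI-E share 2.91-fold lower than in Sham (2.42 to 3.53). The MI-E share of B lineage cells was 1.35 times that of MI (1.01 to 1.81). Among all kept cells under that 2% limit, the MI share was 5.96-fold lower than in Sham (4.71 to 7.65). With every cell thinned to 1000 UMIs (3008, 2366 and 1691 shallower cells of MI-E, MI and Sham left out), members were 0.436%, 0.218% and 2.02% of cells, and among B lineage cells the MI share was then 2.61-fold lower than in Sham (1.93 to 3.62) and the MI-E share 1.36 times that of MI (0.938 to 1.99). The direction of MI and MI-E against Sham was the same in each of these, and MI-E against MI came close to a ratio of 1 among B lineage cells.

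The other B lineage classes were lower in MI as well, as shares of kept cells. Large pre-B cells numbered 108 in MI-E, 34 in MI and 566 in Sham. Their share of kept cells was 15.6-fold lower in MI than in Sham (11.0 to 22.7). It was 3.31 times as high in MI-E as in MI (2.23 to 5.02). This class holds the cells that met every other part of the member rule without a Dntt UMI. Pro-B cells whose Dntt RNA was missed would fall in it, and how many did was not tested. Its median depths were 4178, 2301 and 7214 UMIs in MI-E, MI and Sham, and Erg had 23.6, 100 and 10.4 CPM. Its share is thus not shown to be that of a separate stage. Small pre-B cells numbered 381, 225 and 1910, a share 7.95-fold lower in MI than in Sham (6.92 to 9.17) and 1.77 times as high in MI-E as in MI (1.49 to 2.09). Mature naive cells were 11.7% of kept cells in MI-E, 5.56% in MI and 12.8% in Sham, 2.30-fold lower in MI than in Sham (2.16 to 2.46). As shares of B lineage cells, large and small pre-B cells were 6.41-fold and 3.27-fold lower in MI than in Sham. Mature naive cells were not lower there, with ratios of 1.055 for MI over Sham (0.988 to 1.125) and 1.64 for MI-E over Sham (1.55 to 1.72). Among kept cells, the intervals of the 3 precursor classes lie apart from that of the mature naive cells in MI over Sham. Those of pro-B and small pre-B cells overlap. Of pro-B and small pre-B cells together, members were 25.9% in MI-E, 25.3% in MI and 28.8% in Sham. Of pro-B and mature naive cells together, they were 4.82%, 5.51% and 19.4% in MI-E, MI and Sham. MI-E was thus lowest there, and the ratio of MI-E over MI was 0.875, with an interval from 0.655 to 1.175 that includes 1.

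**Figure D2:**
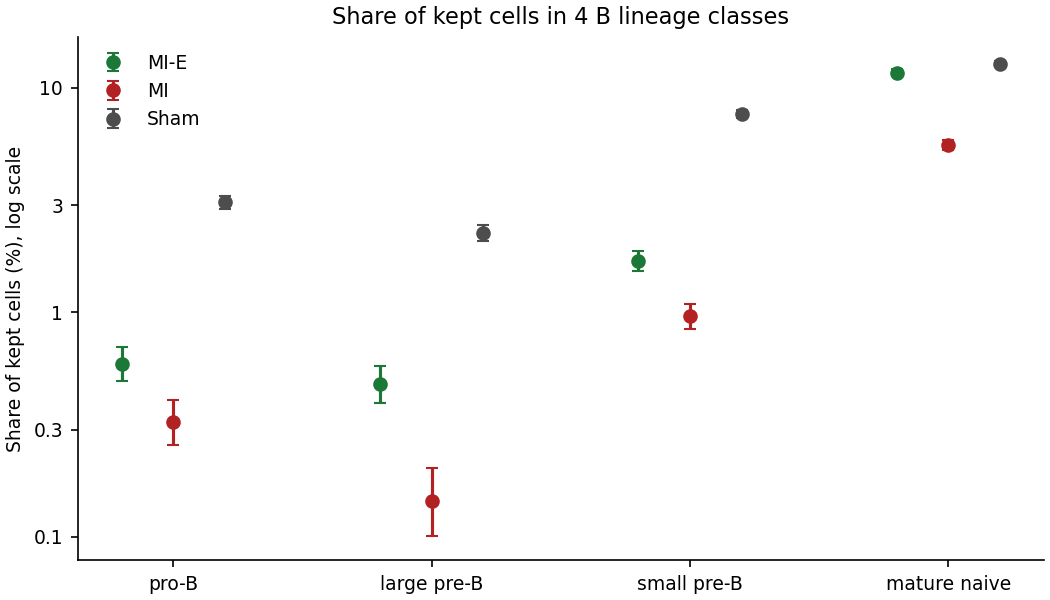
Points give the share of kept cells (log axis, percent) in 4 B lineage classes for MI-E, MI and Sham, with Clopper-Pearson 95% intervals for counting error. The pro-B, large pre-B and small pre-B points of MI-E and MI lie below Sham, with pro-B cells at 0.591%, 0.324% and 3.09%, while the mature naive points of MI-E and Sham lie close together at 11.7% and 12.8%.

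A smaller share of pro-B cells held RNA of the dividing state in the MI library than in the Sham library. A cell was counted as dividing when at least 0.5% of its UMIs came from 93 genes of S phase and of G2 and M phase, which is a range on a scale and not a cell type. Dividing members were 30 of 133 in MI-E (22.6%, 15.8% to 30.6%), 8 of 76 in MI (10.5%, 4.66% to 19.7%) and 289 of 774 in Sham (37.3%, 33.9% to 40.9%). The share was 3.55-fold lower in MI than in Sham (1.78 to 8.30) and 1.66-fold lower in MI-E than in Sham (1.14 to 2.498). The ratio of MI-E over MI was 2.14, with an interval from 0.960 to 5.41 that includes 1.

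At a limit of 1% of UMIs, 13.5% of MI-E, 1.32% of MI (1 cell) and 30.1% of Sham members passed. Near the 0.5% limit, between 0.4% and 0.6%, lay 14, 7 and 49 members. Members thinned to 1000 UMIs passed in 27.7%, 14.3% and 40.9% of cells of MI-E, MI and Sham, and members without monocyte or erythroid RNA in 19.3%, 8.96% and 36.6%. The order of the libraries was thus the same at equal depth. Large pre-B cells passed in 64.8%, 26.5% and 74.6%, small pre-B cells in 8.40%, 12.9% and 14.4%, and mature naive cells in 7.88%, 7.68% and 8.39% of cells. Free RNA of dividing cells adds to such a score in every class, and its part in these shares was not tested.

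**Figure D3:**
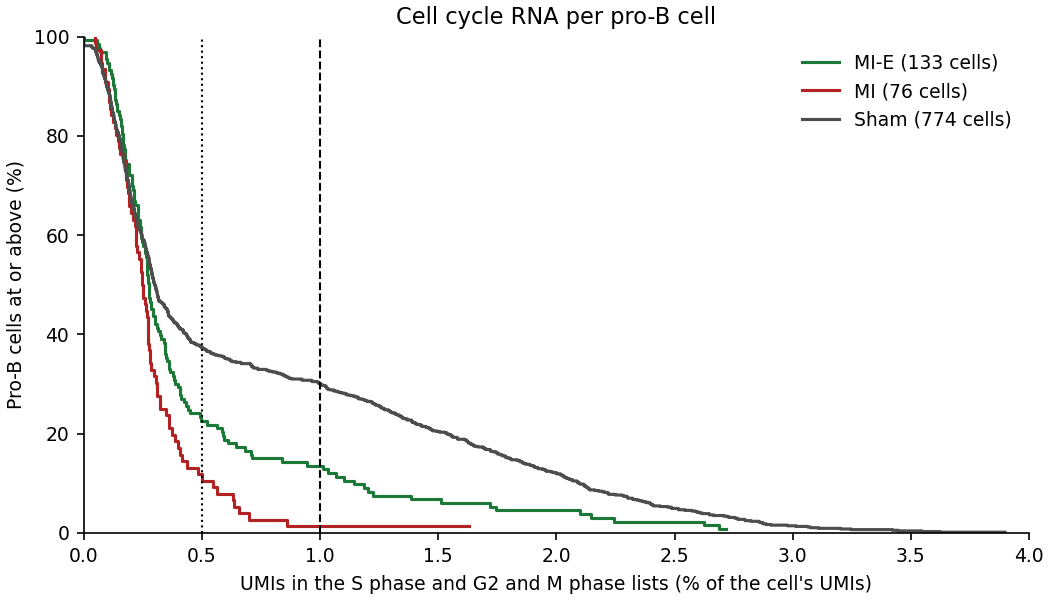
Each curve gives the percent of pro-B cells (vertical axis) that hold at least a given percent of their UMIs in the S phase and G2 and M phase lists (horizontal axis), for MI-E (133 cells), MI (76 cells) and Sham (774 cells). The dotted and dashed lines mark 0.5% and 1%; at 0.5% the curves stand at 22.6%, 10.5% and 37.3%, and at 1% at 13.5%, 1.32% and 30.1%.

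Dividing members differed from the others in B lineage RNA within each library. Vpreb1 had 1205 CPM in dividing and 3103 CPM in other MI-E members, 2101 and 3213 CPM in MI, and 1419 and 3861 CPM in Sham. Rag1, the catalytic subunit of the recombinase, had 293 and 554 CPM in dividing and other members of MI-E, 164 and 277 CPM in MI, and 73.0 and 498 CPM in Sham. Dividing members held a median of 3756, 1260 and 6224 UMIs in MI-E, MI and Sham, against 1863, 1938 and 2003 in other members. The dividing members of MI were 8 cells with 36646 UMIs, of which 1 cell held 23148. As a part of all UMIs, both genes were lower in dividing than in other members of each library, and UMIs per cell were not compared. Vpreb1, which the rule used, is given as a description. Levels in the restricted set, without dividing members, therefore stand beside the sums.

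Among 3271 genes with a mean of at least 50 CPM, 5.41% were at least 2-fold higher and 6.88% at least 2-fold lower in MI than in Sham members. Of those past 2-fold, 44.0% were higher on the CPM scale, 33.7% with median-of-ratios scaling and 29.7% with TMM scaling, which move every log2 ratio of MI over Sham by -0.09 and -0.14. For MI-E over Sham the same scalings move log2 ratios by -0.15 and -0.20, and 34.0% and 29.9% of the genes past 2-fold were then higher, against 57.5% on the CPM scale. In the restricted set, 4.74% of 3375 genes were at least 2-fold higher and 4.8% at least 2-fold lower in MI than in Sham, 6.53% and 4.58% of 3430 in MI-E than in MI, and 4.82% and 3.98% of 3443 in MI-E than in Sham. Genes of division were among those furthest lower in MI. None of 22 measured S phase genes was higher in MI, with 17 at least 2-fold lower and a median log2 ratio of -1.54, beside a median of 0.04 over all genes tested. Of 26 genes of G2 and M phase, 1 was higher and 22 were at least 2-fold lower, with a median of -1.87, and 9 of 9 replication-dependent histone genes were at least 2-fold lower.

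Top2a, the topoisomerase that untangles replicated DNA, had 316 CPM in MI-E, 60.8 in MI and 620 in Sham, 10.2-fold lower in MI than in Sham (5.94 to 19.2). Mki67, which encodes a protein on the surface of mitotic chromosomes, had 353, 79.5 and 514 CPM, 6.46-fold lower in MI than in Sham (4.03 to 11.1). Pclaf, a partner of the replication clamp, had 186, 56.1 and 642 CPM. The MI levels rested on few cells: 17 Mki67 UMIs lay in 5 members, with 8 in 1 member, and 12 Pclaf UMIs in 2, with 10 in 1. In the restricted set, from which dividing cells were removed by these genes, Top2a had 41.1, 24.1 and 24.98 CPM and Mki67 25.7, 24.1 and 28.2 CPM. Nusap1, Ube2c and Hist1h2ae, also among the 8 genes furthest lower in MI, were lower in MI in all members too, and so were H2afx and Hist1h1b. H2afx, the histone variant that marks broken DNA, had 191, 28.1 and 351 CPM in MI-E, MI and Sham, and Hist1h1b, a linker histone gene, had 125, 74.9 and 641 CPM.

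Genes of MYC and ribosome biogenesis were lower in MI and MI-E than in Sham members. None of 18 was higher in MI than in Sham, with 7 at least 2-fold lower and a median of -0.85. Over all genes tested, 6.88% were at least 2-fold lower in MI. None of 19 genes of the list was higher in MI-E than in Sham, where the median of the list was -0.65. Npm1, a nucleolar chaperone gene, had 1140 CPM in MI-E, 824 in MI and 1405 in Sham, and Ran, the GTPase of nuclear transport, had 373, 276 and 764 CPM. The restricted set had a median of -0.31 for MI over Sham, with 4 of 13 genes higher, and Npm1 had 817, 771 and 730 CPM. In mature naive cells the same list lay the other way, with 17 of 18 genes higher in MI than in Sham and a median of 0.24, and in small pre-B cells 21 of 21 were higher, with a median of 0.63.

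The interleukin 7 receptor gene was higher in MI and MI-E than in Sham members. Il7r, which encodes the chain that binds the cytokine needed by pro-B cells of mice, had 660 CPM in MI-E, 594 in MI and 234 in Sham, and both MI-E and MI lay above Sham beyond counting error. The ratio was 2.54 for MI over Sham (2.09 to 3.06), 2.81 for MI-E over Sham (2.44 to 3.23) and 1.11 for MI-E over MI (0.895 to 1.38). Without carriers and dividing members Il7r had 987, 867 and 314 CPM, a ratio of 2.76 for MI over Sham (2.19 to 3.46). At 1000 UMIs a cell, Il7r was detected in 53.9% of MI-E, 45.7% of MI and 23.1% of Sham members, against 0.713%, 0.691% and 1.25% of neutrophil-rich cells at the same depth; before thinning, 78.2%, 56.6% and 53.5% of members had it. Small pre-B cells had 790, 657 and 334 CPM of Il7r in MI-E, MI and Sham, and mature naive cells 38.6, 67.9 and 53.9 CPM. The difference from Sham was thus present in small pre-B cells too.

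Other surface receptors moved in both directions. Of 12 measured genes of the list, 9 were higher in MI than in Sham in all members and 6 of 12 in the restricted set. In all members the median log2 ratio over all genes tested was 0.04, so genes above a ratio of 1 were common. Flt3, the receptor of earlier lymphoid progenitors, had 78.5 CPM in MI-E, 79.5 in MI and 15.8 in Sham, a ratio of 5.05 for MI over Sham (2.75 to 8.84), and 61.7, 48.2 and 9.77 CPM in the restricted set. Cd24a, the heat-stable antigen that increases as B precursors advance, had 434 CPM in MI-E, 201 in MI and 796 in Sham, 3.96-fold lower in MI than in Sham (2.93 to 5.48). Cd24a had 540, 257 and 821 CPM in the restricted set, where MI-E over MI was 2.10 (1.40 to 3.23). Ly6d, a marker of B-committed progenitors, had 184, 178 and 350 CPM in MI-E, MI and Sham members. Kit, the stem cell factor receptor, had 34.3, 28.1 and 26.9 CPM. Flt3 was thus higher and Cd24a and Ly6d lower in MI and MI-E than in Sham members, and Cd24a and Ly6d were also lower in mature naive cells, where Cd24a had 334, 254 and 521 CPM and Ly6d 831, 967 and 1613 CPM.

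**Figure D4:**
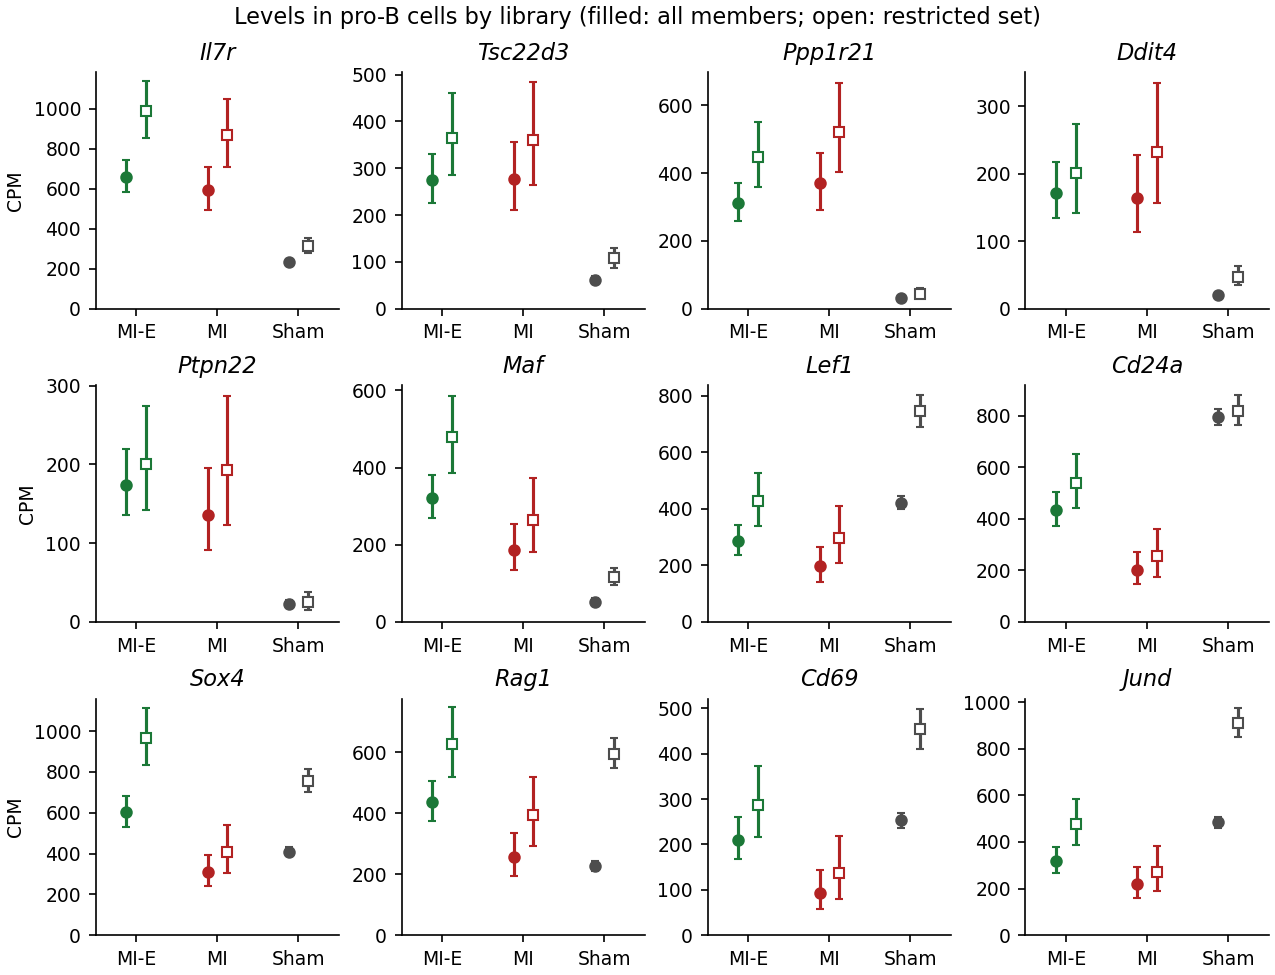
Levels in CPM (vertical axes, from 0) of 12 genes in pro-B cells of MI-E, MI and Sham, with exact Poisson 95% intervals; filled circles are all members and open squares the restricted set. Il7r, Tsc22d3, Ppp1r21, Ddit4, Ptpn22 and Maf are higher in MI-E and MI than in Sham in both, Lef1, Cd24a, Cd69 and Jund are lower, and Rag1 in MI lies above Sham in all members (257 and 226 CPM) and below it in the restricted set (394 and 596 CPM).

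The rule used Vpreb1, Igll1 and Dntt, so their levels are a description. Vpreb1 had 2246 CPM in MI-E, 3023 in MI and 2299 in Sham over all members, and 3377, 4159 and 4587 CPM in the restricted set. The order of MI and Sham thus depended on which members were summed. Igll1, the λ5 chain, had 2642, 2939 and 2956 CPM in the restricted set of MI-E, MI and Sham, and Dntt 1696, 1534 and 1811 CPM. Vpreb3, a relative of these genes that the rule did not use, had 4287, 5300 and 5348 CPM there. Lef1, which the rule did not use either, was 2.15-fold lower in MI than in Sham over all members (1.58 to 2.99) and 2.51-fold lower in the restricted set (1.80 to 3.60), with 427, 297 and 746 CPM in MI-E, MI and Sham. Lef1 was detected in 28.5% of MI-E, 21.4% of MI and 42.1% of Sham members at 1000 UMIs, against 0.157%, 0.0779% and 0.156% of neutrophil-rich cells; before thinning, 54.1%, 38.2% and 78.8% of members had it.

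Of the genes that join antibody segments, 6 of 18 were measured for MI over Sham, and 2 were higher, 1 of them past 2-fold, while 3 were at least 2-fold lower. Over all 3271 genes tested, 5.41% were at least 2-fold higher and 6.88% at least 2-fold lower in MI. Rag1 had 436 CPM in MI-E, 257 in MI and 226 in Sham. Without dividing members and carriers it had 627, 394 and 596 CPM, and MI-E over MI was 1.59 (1.14 to 2.27). At 1000 UMIs a cell Rag1 was detected in 45.4% of MI-E, 25.7% of MI and 27.8% of Sham members, against 0.128%, 0.0584% and 0.560% of neutrophil-rich cells; before thinning, 66.9%, 42.1% and 52.3% of members had it. Rag2, its partner, had 195, 112 and 174 CPM there. Both Rag genes were thus lowest in MI once dividing members were left out, and the interval of Rag2 for MI-E over MI, 0.920 to 3.47, includes 1. Xrcc6, the Ku70 end-joining gene, had 525 CPM in MI-E, 477 in MI and 225 in Sham, and 802, 691 and 454 CPM in the restricted set, a ratio of 1.52 for MI over Sham there (1.19 to 1.92). Hmgb1 and Hmgb2, DNA-bending cofactors that are also abundant in dividing cells, were 3.30-fold and 3.14-fold lower in MI than in Sham over all members, and 1.41-fold and 1.10-fold lower in the restricted set.

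The transcription factors of B cell commitment were present in every library. Ebf1, which opens the B cell programme, had 3960 CPM in MI-E, 4038 in MI and 3712 in Sham, and 5895, 5982 and 6583 CPM in the restricted set. Pax5, which keeps it, had 463, 337 and 495 CPM in the restricted set of MI-E, MI and Sham. Of 28 measured factors, 14 were higher in MI than in Sham in all members, with a median log2 ratio of 0.02, and 8 of 26 in the restricted set, with a median of -0.34, close to -0.34 in mature naive cells.

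Sox4 and Bach2 had their lowest level of the 3 libraries in MI. Sox4, needed for the survival of pro-B cells in mice, had 603 CPM in MI-E, 309 in MI and 409 in Sham, and 966, 410 and 756 CPM in the restricted set. MI-E over MI was 1.95 in all members (1.48 to 2.60) and 2.36 in the restricted set (1.72 to 3.28), while small pre-B cells had 696, 652 and 686 CPM. Sox4 was detected in 53.9% of MI-E, 31.4% of MI and 39.9% of Sham members at 1000 UMIs, against 0.884%, 0.633% and 1.46% of neutrophil-rich cells; before thinning, 75.9%, 38 of 76 and 72.1% of members had it. The MI-E library was thus highest in both the summed level and the share of cells with a UMI. Bach2, a repressor that acts after pre-B receptor signalling, had 194, 122 and 224 CPM in MI-E, MI and Sham members, and 770, 419 and 769 CPM in small pre-B cells. Bcl11a, a factor needed for early B cells, lay the other way, with 331, 421 and 257 CPM, and 468, 570 and 327 CPM in the restricted set. Myb, which acts in pro-B survival, had 856, 674 and 561 CPM in all members and 1275, 972 and 968 CPM in the restricted set. MI-E lay above MI in Sox4 and Myb beyond counting error in all members and in the restricted set.

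Signalling genes downstream of the pre-B receptor and of interleukin 7 lay on both sides of Sham in MI members. Of 19 measured genes of pre-B receptor signalling, 14 were higher in MI than in Sham in all members and 9 in the restricted set, and 0 were past 2-fold higher in either. Over all genes tested, 5.41% in all members and 4.74% in the restricted set were at least 2-fold higher, so 0 of 19 is near these shares. Inpp5d, the phosphatase SHIP, had 490 CPM in MI-E, 435 in MI and 264 in Sham. Its restricted-set ratio of MI over Sham was 1.34 (1.02 to 1.73), an interval above 1 on the CPM scale. Blnk, the adaptor below the receptor, had 544, 440 and 474 CPM in MI-E, MI and Sham members. Of 7 measured genes of interleukin 7 signalling and survival, 6 were higher in MI than in Sham, and Ccnd3, the D-type cyclin of dividing B precursors, was the exception, with 258 CPM in MI-E, 271 in MI and 491 in Sham. The median log2 ratio over all 3271 genes tested was 0.04 for MI over Sham. Genes above a ratio of 1 were thus common, and 6 of 7 is a description only.

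Genes known to respond to glucocorticoids were higher in MI and MI-E than in Sham members. Of 15 measured genes, 14 were higher in MI than in Sham and 6 at least 2-fold, with a median log2 ratio of 0.83. Over all 3271 genes tested, 5.41% were at least 2-fold higher in MI. For MI-E over Sham 15 of 15 were higher and 8 at least 2-fold, with a median of 1.02, where 4.55% of 3364 genes were at least 2-fold higher and 3.36% at least 2-fold lower. Restricted-set counts were 14 of 15 higher in MI-E and 11 of 14 higher in MI, each against Sham, with medians of 1.02 and 0.57. Tsc22d3, the glucocorticoid-induced leucine zipper, had 275 CPM in MI-E, 276 in MI and 61.8 in Sham, ratios of 4.47 for MI over Sham (3.29 to 5.98) and 4.44 for MI-E over Sham (3.50 to 5.61). Ddit4, an inhibitor of mTOR signalling, had 172, 164 and 20.3 CPM, and its restricted-set ratio of MI over Sham was 4.87 (2.94 to 7.97).

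Tsc22d3 was detected in 29.2% of MI-E, 25.7% of MI and 6.69% of Sham members at 1000 UMIs, against 8.05%, 8.75% and 5.17% of neutrophil-rich cells, and before thinning in 50.4%, 48.7% and 22.4% of members. The Sham share is thus near the share in neutrophil-rich cells, and the MI-E and MI shares are above it. In neutrophil-rich cells the share was also higher in MI than in Sham, with a ratio of 1.695 (1.435 to 2.012). The ratio in members was 3.842 (2.112 to 6.689). Whether Tsc22d3 in neutrophil-rich cells is free RNA or their own was not tested. Zfp36l2, an RNA-binding protein that promotes quiescence in B precursors, had 743 CPM in MI-E, 529 in MI and 344 in Sham members, and Txnip, an inhibitor of glucose uptake, had 336, 309 and 166 CPM. Btg1, an antiproliferative gene, was higher in MI in all members, with 616, 632 and 440 CPM in MI-E, MI and Sham, but had 802, 731 and 754 CPM in the restricted set. Il7r is in this list as well. The same list had a median of 0.56 for MI over Sham in mature naive cells and 0.55 in small pre-B cells, so it was higher in MI in these classes also, and no test of a difference between classes was possible.

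Several other genes named by rank were higher in both MI and MI-E. Ppp1r21, which encodes a regulator of endosomes, had 311 CPM in MI-E, 370 in MI and 32.6 in Sham, a ratio of 11.3 for MI over Sham (8.39 to 15.2), and was found in 77 MI-E, 44 MI and 103 Sham members. Its ratio in the restricted set was 11.7 (7.81 to 17.8), against 4.43 (3.40 to 5.75) in small pre-B and 2.78 (2.36 to 3.29) in mature naive cells. The restricted-set interval lies above both of these. Ptpn22, a tyrosine phosphatase of lymphocytes, had 174, 136 and 22.9 CPM in MI-E, MI and Sham members, a ratio of 7.72 for MI over Sham in the restricted set (4.17 to 14.3) and of 1.12 in small pre-B cells (0.535 to 2.11). Maf, a transcription factor, had 321, 187 and 52.7 CPM in MI-E, MI and Sham members, a ratio of 6.10 for MI-E over Sham (4.84 to 7.67), while mature naive cells had 25.9, 21.0 and 25.4 CPM. Sapcd1 had 186, 360 and 85.0 CPM in MI-E, MI and Sham members, and 303, 538 and 161 CPM in the restricted set.

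Vcan, Wfdc17 and Tgfbi, which are monocyte genes, met the rank rule through few cells. Vcan had 177 CPM in MI-E, 206 in MI and 16.3 in Sham, from 10 members of MI-E, 10 of MI and 32 of Sham. Without members carrying monocyte or erythroid RNA, Vcan had 0 CPM in MI-E (a limit of 11.3 CPM from 3 counts), 22.8 in MI and 1.94 in Sham, and Wfdc17 26.3, 7.60 and 3.50 CPM.

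Immediate early genes, which turn on within minutes of a stimulus, were lower in the restricted set of MI. There 1 of 14 was higher in MI than in Sham and 7 were at least 2-fold lower, with a median of -0.96, where 4.8% of all genes were at least 2-fold lower and their median was 0.01, against 5 of 15 higher and a median of -0.34 in all members. Jund, an AP-1 subunit, had 478 CPM in MI-E, 273 in MI and 911 in Sham in the restricted set, 3.34-fold lower in MI than in Sham, and Cd69, an early activation antigen, had 288, 136 and 454 CPM. The list was also lower in MI than in Sham in small pre-B cells, with a median of -0.93, and in mature naive cells, with a median of -0.75. MI-E over Sham had a median of -0.52 in the restricted set, with 2 of 15 genes higher.

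The cold-inducible RNA-binding genes Rbm3 and Cirbp were both higher in MI than in Sham. Together they summed to 1089 CPM in MI-E, 1203 in MI and 776.7 in Sham members. Over all kept cells the sums were 999.9, 1257 and 573.5 CPM, so the difference was not particular to pro-B cells. Rbm3 had 895 CPM in MI-E, 1043 in MI and 675 in Sham. Of 10 heat shock genes, 1 was higher in MI than in Sham in all members, with a median of -0.75, and 2 of 8 in the restricted set. Hsp90ab1, a chaperone gene, had 1209, 1025 and 1549 CPM in all members and 884, 883 and 899 CPM in the restricted set of MI-E, MI and Sham.

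Antigen presentation and interferon genes depended on which members were summed. Of 7 measured MHC class II genes, 7 were higher in MI than in Sham in all members, with a median of 0.87, but 2 of 8 in the restricted set, with a median of -0.72. Cd74, the invariant chain, had 407 CPM in MI-E, 959 in MI and 514 in Sham in all members, and 571, 265 and 570 CPM in the restricted set. Of its 205 UMIs in all MI members, 157 lay in 1 cell, and 14 members had a UMI of it. With the restricted set, Cd74 was thus lowest in MI, 2.15-fold lower than in Sham (1.51 to 3.16). Type I interferon genes had a median of 0.04 for MI over Sham in all members and -0.61 in the restricted set, where 0 of 12 were higher. Ifi27l2a, an interferon-induced gene, had 147, 337 and 659 CPM in MI-E, MI and Sham members, 4.48-fold lower in MI-E than in Sham (3.47 to 5.89), and 178, 230 and 1024 CPM in mature naive cells. Ly6e, the most abundant gene of the list, had 1412, 1343 and 1309 CPM. For MHC class I, 11 of 16 were higher in MI than in Sham, with B2m, its light chain, at 1373, 1436 and 1364 CPM. Over all genes tested in all members, the median log2 ratio of MI over Sham was 0.04, so 11 of 16 is a description only.

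**Figure D5:**
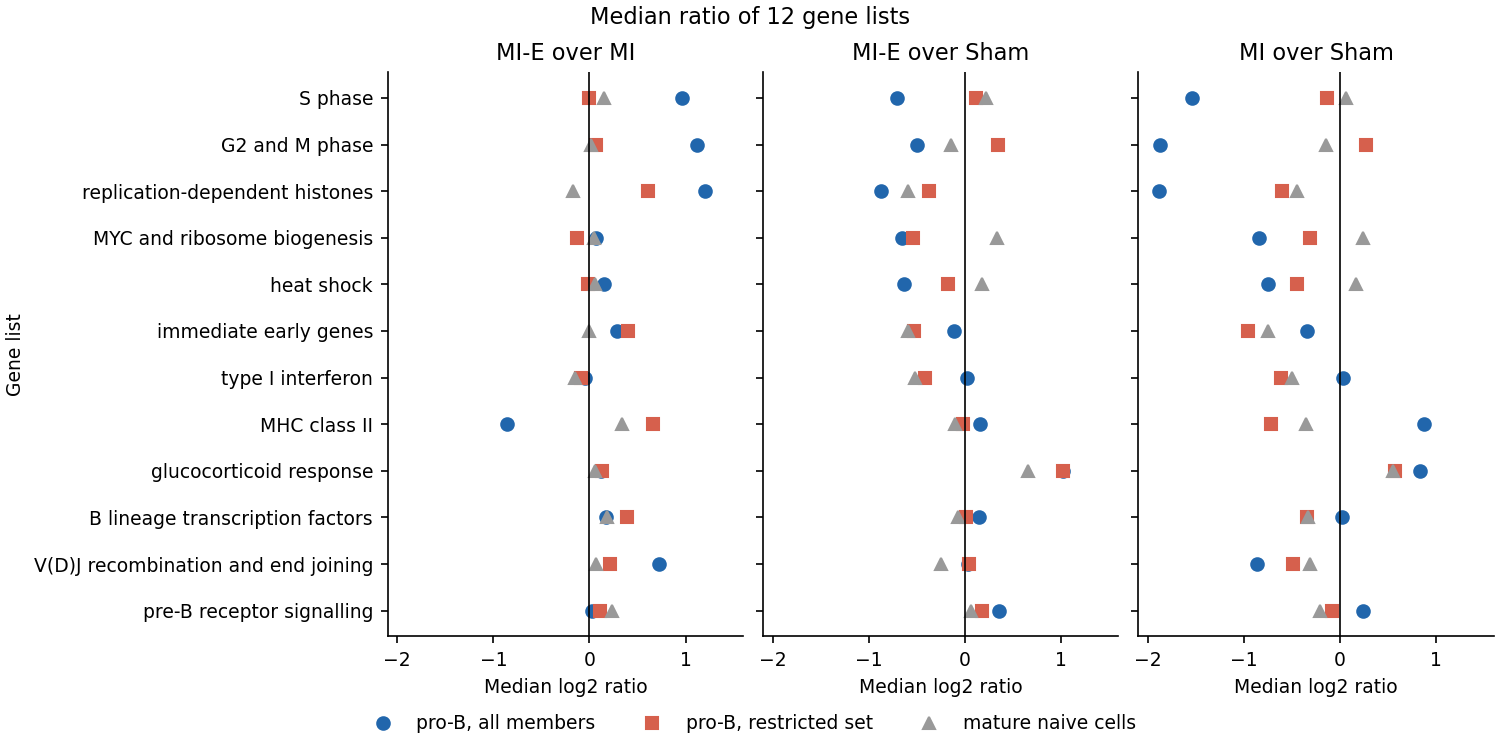
Median log2 ratio (horizontal axis) of 12 gene lists for MI-E over MI, MI-E over Sham and MI over Sham, in all pro-B members (circles), the restricted set (squares) and mature naive cells (triangles). For MI over Sham, S phase lies at -1.54 in all members and -0.13 in the restricted set, the glucocorticoid response at 0.83, 0.57 and 0.56, and MHC class II at 0.87 in all members and -0.72 in the restricted set.

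The 8 genes named as higher in MI-E than in MI members were all genes of the cell cycle or of replication. Among 3399 genes tested, 4.21% were at least 2-fold higher and 2.12% at least 2-fold lower in MI-E. Of 20 G2 and M phase genes, 20 were higher in MI-E and 12 at least 2-fold, with a median of 1.12, and of 17 S phase genes 16 were higher, with a median of 0.97. Hist1h2ap, a replication-dependent histone gene, had 456 CPM in MI-E, 93.6 in MI and 360 in Sham, and MI-E over MI was 4.87 (3.07 to 8.16). Of its 20 UMIs in MI, 15 lay in 1 of 6 members, and of its 186 UMIs in MI-E, 57 lay in 1 of 30. The interval takes UMIs as independent and leaves out this spread between cells. Counted by cell, the share of dividing members, MI-E over MI, had an interval from 0.960 to 5.41 that includes 1. Mature naive cells had 269, 103 and 132 CPM of Hist1h2ap, so it was higher in MI-E there also. Top2a, Mki67, H2afx, Ccna2, Cenpf, Nusap1 and Ube2c were the other genes named. In the restricted set of MI-E over MI, 2 of 5 S phase genes and 4 of 7 genes of G2 and M phase were higher, with medians of -0.006 and 0.07.

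Of the genes named as lower in MI-E than in MI, Pmf1, a kinetochore gene, had 307 CPM in MI-E, 735 in MI and 337 in Sham, and 422, 915 and 646 CPM in the restricted set. Rnf187, a ubiquitin ligase gene, had 201, 468 and 171 CPM, and 283, 602 and 281 CPM in the restricted set of MI-E, MI and Sham. In mature naive cells Pmf1 had 91.4, 96.5 and 99.7 CPM and Rnf187 90.0, 92.3 and 93.2 CPM. Both genes were thus highest in MI among pro-B cells and level among mature naive cells. Their levels in large and small pre-B cells are not given here, so the pattern is not shown to be particular to pro-B cells. Ctla2a, a protease inhibitor gene, had 22.1, 103 and 20.04 CPM in MI-E, MI and Sham members and 13.9, 38.9 and 17.7 CPM in mature naive cells, but its MI level rested on 5 members, and 1 of these held 11 of the 22 UMIs. Ifitm3, Ifitm2, Tyrobp and Fam189b were also named, and Ifitm3 had 208, 618 and 461 CPM in all members but 87.4, 169 and 184 CPM in the restricted set of MI-E, MI and Sham. Lmnb1 and Mif were named as lower in MI-E than in Sham; Mif, a cytokine gene, had 248, 220 and 673 CPM in MI-E, MI and Sham members and, the other way, 327, 350 and 212 CPM in mature naive cells.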

How the data were processed

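The 3 libraries were made with 10x Genomics 3′ v3.1 chemistry, per the labels' protocols. The authors deposited UMI counts per gene and barcode, made with Cell Ranger 5.0.1 on mm10, per the submitters' processing notes. Read filters, the barcode caller and any removal of doublets before deposit are not given in the sources used here.

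From these counts, cells were kept and members chosen as stated in the report. UMIs were summed over members and scaled to CPM. Genes with a mean of at least 50 CPM in the 2 libraries compared were set against a 2-fold limit. All intervals are exact at 95%: binomial (Clopper-Pearson) for shares, Poisson for levels, and conditional binomial for ratios of 2 counts. A level of 0 was set to 3 counts in a ratio. The interval code was checked on simulated counts. Promoter sequences came from RefSeq (GRCm38.p6), the build of mm10.

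Members and gene lists were chosen with earlier results of these data known. Named genes were the first 8 in each direction (5 for MI-E over Sham) by the interval bound nearest to a ratio of 1, plus the members of the lists. Immunoglobulin, mitochondrial, ribosomal protein and model genes, the genes of the member rule, and genes under 0.5 times their level over all kept cells were left out of that rank. Doublets were left in and removed only as an alternative.

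Alternatives covered cell filters, member rules, denominators, thinning to 1000 UMIs (3, 6 and 12 shallower members of MI-E, MI and Sham left out), equal weight of cells, doublets by Scrublet in scanpy 1.11.5 (2 simulated per cell, 30 components), the most abundant cell, a minimum of 10 CPM, and scaling with edgeR 4.0.16 (TMM) and DESeq2 1.42.0 (median of ratios), both used for scaling factors only. The software was R 4.3.3 and Python 3.11.15 with scipy 1.17.1, matplotlib 3.10.9, numpy 2.4.6 and pandas 2.3.3.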

Additional observations from a re-analysis of the deposited data

Results flagged for a closer look

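In 3 list medians, pro-B cells and mature naive cells of the same libraries lay on opposite sides of 0, and the difference between the 2 cell classes was not tested. MHC class II genes had a median log2 ratio of 0.87 for MI over Sham in pro-B cells and -0.36 in mature naive cells. For MI-E over MI the same genes had a median of -0.86 in pro-B cells and 0.34 in mature naive cells. Without members that carried monocyte or erythroid RNA, the pro-B medians were -0.37 for MI over Sham and 0.70 for MI-E over MI, on the same side of 0 as the mature naive medians.

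Genes of MYC and ribosome biogenesis had a median of -0.65 for MI-E over Sham in pro-B cells and 0.33 in mature naive cells. This median was -0.54 in the restricted set of pro-B cells, with 2 of 10 genes higher in MI-E.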

How the results depend on the processing

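No paired analysis was possible because each group has 1 library, and for the same reason no replicate could be left out. On the log2 scale, the share of pro-B cells among kept cells, MI over Sham, was -3.25, and was -3.65 with a stricter cell filter, -3.67 with a stricter limit on neutrophil RNA and -1.97 among B lineage cells. Among B lineage cells it was 0.43 for MI-E over MI, against 0.87 among kept cells, and -1.54 for MI-E over Sham, against -2.39. Dividing members were 57.9%, 48.7% and 59.2% in MI-E, MI and Sham at a limit of 0.25% of UMIs and 13.5%, 1.32% and 30.1% at 1%. Thinning gave 40.9% in Sham.

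The count of genes past 2-fold, 402 for MI over Sham, 215 for MI-E over MI and 266 for MI-E over Sham, changed with the members and levels that entered. It was 1828, 1568 and 1233 with a minimum of 10 CPM, 729, 332 and 576 without doublets, 652, 660 and 517 after thinning, and 695, 348 and 639 without members carrying monocyte or erythroid RNA, an alternative chosen after seeing the data. It was 214, 344 and 264 among members under the cell cycle limit and 1021, 911 and 408 among members at or over it.

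Some log2 values changed sign, and the cause was not tested. Among members under the cell cycle limit, the value for MI over Sham was 0.33 for S phase, 0.23 for G2 and M phase, 0.24 for Ccna2, 0.23 for H2afz, 0.19 for Lmnb1, 0.41 for Top2a and 0.17 for Ube2c. For MI-E over MI it was -0.22 for S phase, -0.002 for G2 and M phase, -0.34 for Ccna2 and -0.82 for Hist1h2ae, and for MI-E over Sham 0.26 for G2 and M phase and 0.66 for Pclaf. Among members at or over the limit, MI over Sham was 0.32 for V(D)J genes, 0.38 for immediate early genes and -0.97 for MHC class II, and MI-E over MI was 1.41 for MHC class II, over 7 genes.

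MHC class II for MI over Sham was -0.23 with equal weight of cells, -0.64 with a stricter member rule, -0.37 without carriers of monocyte or erythroid RNA, -0.83 without the most abundant cell of each gene and -0.33 after thinning. For MI-E over MI the same settings gave 0.35, 0.53, 0.70, 0.58 and 0.046, and 0.73 without doublets, and they gave 0.35, 0.32, 0.93, 0.58 and 0.59 for Cd74, with 0.75 without doublets. Tyrobp was -0.56 for MI over Sham without doublets, -0.28 without carriers and -0.042 after thinning, and 1.83 for MI-E over MI without doublets. The median of glycolysis, MI-E over Sham, was -0.067 with equal weight of cells, -0.14 without doublets and -0.30 without carriers.

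Over 251 values of single genes, 2286 of the recomputed values stayed within the counting interval, 679 moved past it and 18 with an interval apart from a ratio of 1 changed sign. Another 29 values, of 11 genes, had a library at 0 and were left out. Over 57 list medians, 552 moved by less than 0.3 on the log2 scale, 109 moved further and 23 changed sign. The 76 members and 213716 UMIs of MI limit every comparison with that library. With 1 library a group, differences between animals, captures and groups cannot be told apart.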
